A study of Mus musculus with 29 samples.

Results

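The abundance of 6 microRNAs best known from liver, pancreas, gut and kidney was followed in gonadal white adipose tissue (gWAT). They are mmu-miR-122-5p, mmu-miR-192-5p, mmu-miR-194-5p, mmu-miR-216a-5p, mmu-miR-216b-5p and mmu-miR-217-5p, written from here on without the prefix for mouse. They were taken by name from a small RNA count table, which lists each of the 6 under its name as a mature and as a hairpin row, so 12 rows of 1571 mature and 1526 hairpin rows were followed. The table covers 29 female NZO/HIBomDife mice, of which 15 were diabetes-prone (DP) and the other 14 were diabetes-resistant (DR), with gWAT taken at 10 weeks of age. All mice of both groups ate a high-fat diet, and none was on another diet. They are of the same inbred strain and were assigned to DP or DR by a risk score before hyperglycemia, so the groups are a forecast for each mouse and not a treatment. Each library is 1 mouse and carries a number in its label, used here to name it. What the number stands for is not given in the sources used here.

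MicroRNAs (miRNAs) are cut from a hairpin precursor whose 5p and 3p arms can each give a mature strand, and the strand pairs with messenger RNAs mainly through its seed, bases 2 to 8. MiR-122-5p is the dominant miRNA of hepatocytes and acts in lipid and cholesterol metabolism. MiR-192-5p and miR-194-5p are abundant in intestinal, renal and hepatic epithelium and are made from shared transcripts. MiR-216a, miR-216b and miR-217 are encoded side by side and mark the acinar cells of the exocrine pancreas.

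The sequences show which of the 6 can be told apart from their relatives by the reads. A RefSeq mature sequence (GRCm38.p6, the assembly that mm10 denotes) was matched for 5 of the 6 members. Capitals mark the seed, bases 2 to 8 counted from the 5′ end, and miR-215-5p is shown because it has the seed of miR-192-5p.
miR-192-5p: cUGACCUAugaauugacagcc
miR-215-5p: aUGACCUAugauuugacagac
miR-194-5p: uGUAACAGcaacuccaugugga
miR-216a-5p: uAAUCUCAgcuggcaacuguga
miR-216b-5p: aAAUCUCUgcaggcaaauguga
miR-217-5p: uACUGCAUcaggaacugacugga
MiR-192-5p and miR-215-5p are both 21 bases long and differ at 3 of them, C1A, A12U and C20A, with the base of miR-192-5p written before the position. MiR-216a-5p and miR-216b-5p differ at 4 of 22 bases (U1A, A8U, U11A and C17A), and A8U lies in the seed, so these neighbours do not share a full seed. No other mature miRNA of the RefSeq table had the seed of miR-194-5p, miR-216a-5p, miR-216b-5p or miR-217-5p.

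The genes lie in clusters. On chromosome 19, Mir194-2 (6264643 to 6264728) and Mir192 (6264844 to 6264932) are 115 bases apart on the plus strand, outside any GENCODE gene other than miRNA genes. On chromosome 1, Mir194-1 (185313319 to 185313385) and Mir215 (185313581 to 185313692) are 195 bases apart. Mir194-1 is in an intron and Mir215 overlaps an exon of the noncoding gene 2010103J01Rik, and both are in an intron of Iars2 on the other strand. On chromosome 11, Mir216b (28746191 to 28746276), Mir216a (28757012 to 28757083) and Mir217 (28763728 to 28763835) span 17645 bases. Mir216a and Mir217 are in introns of the long noncoding gene Gm12082. Mir216c lies within Mir216b on the opposite strand (28746198 to 28746266), and its 5p and 3p mature rows held 1 read each in all 29 libraries together.

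The libraries held 24416345 to 27513950 counts over all features in DP and 24266300 to 27662601 in DR mice. Mature and hairpin rows with a mean above 10 counts, the ones tested, held 20382254 to 23211296 counts in a DP and 20596180 to 23184714 in a DR library. Levels are given as CPM, the share of these counts on a common scale, after TMM scaling, which corrects library size for composition, with DP scaling factors between 0.923 and 1.15 and DR factors between 0.866 and 1.053. Of the miRNAs listed for adipose tissue, miR-143-3p, which smooth muscle also makes, was at 19713 CPM or more in every library, miR-378a-3p at 2897 CPM or more and miR-193b-3p at 79.5 CPM or more. The endothelial miR-126a-3p was at 53894 CPM or more. No other tissue was compared here, so these levels show the markers present and do not set the tissue apart from others. RNA of the tissue as a mixture of cells was sequenced, so fewer cells of a type and less miRNA per cell cannot be told apart.

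The 6 mature miRNAs fell into an abundant and a scarce group. Over all 29 libraries, miR-192-5p was at 129.6 ± 14.5 CPM, miR-194-5p at 65.9 ± 13.2 CPM and miR-122-5p at 44.8 ± 57.2 CPM (mean ± SD). By mean CPM they ranked 103, 138 and 164 among the 1571 mature rows. The 3 pancreas miRNAs were at 0.699 ± 0.291 CPM for miR-216a-5p, 0.462 ± 0.182 for miR-216b-5p and 0.139 ± 0.105 for miR-217-5p, with ranks of 517, 571 and 770. All 6 together made up a median of 0.0401% of the mature reads of a library, between 0.0302% and 0.0942%.

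Some steps in this order held in every library and others did not. MiR-192-5p had more reads than miR-194-5p in 29 of 29 libraries, and miR-122-5p more than miR-216a-5p in 29. MiR-194-5p was above miR-122-5p in 23 of 29, and their means differ by less than the SD of miR-122-5p. MiR-216a-5p exceeded miR-216b-5p in 20 of 29 with SDs that overlap, and miR-216b-5p exceeded miR-217-5p in 27, with a tie in 1.

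**Figure D1:**
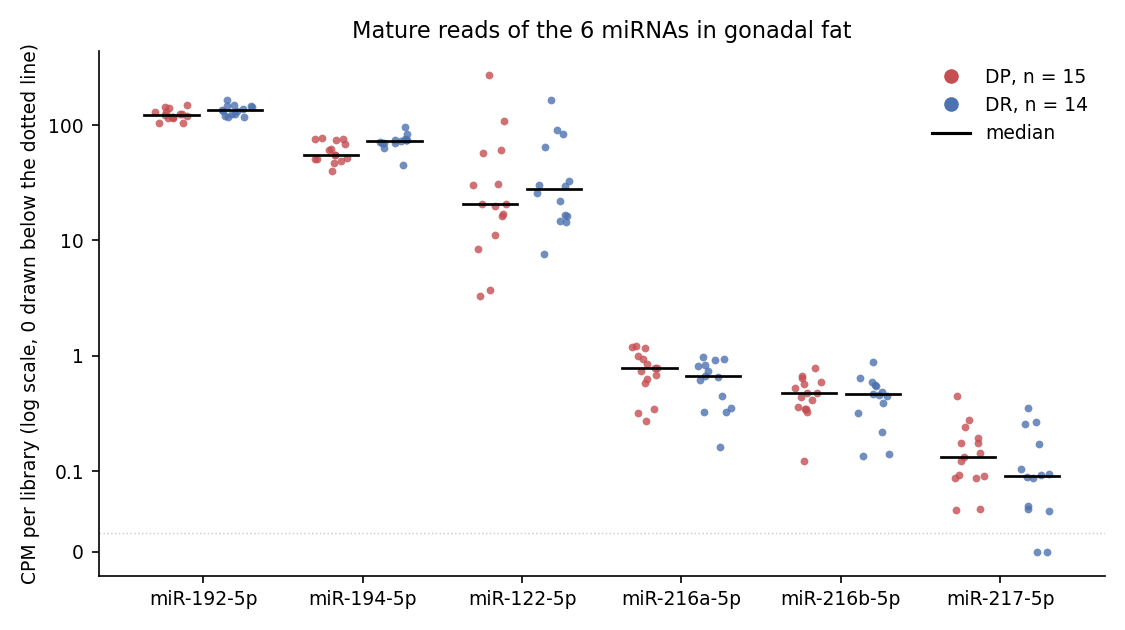
Mature reads of the 6 miRNAs in CPM on a log axis, with 1 point per library (red DP, blue DR) and a black bar at the group median. MiR-122-5p spreads over 3.32 to 274 CPM in DP, while miR-192-5p stays within 104 to 149 CPM, and the DP and DR points overlap for each of the 6.

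Between DP and DR, miR-194-5p was lower in DP mice in its mature and in its hairpin row, by 18.0% and 23.6% respectively, and no other row of the 6 miRNAs passed the test. Of the 12 rows, 11 had a mean count above 10 and were tested, and 2 passed at an adjusted p under 0.05 (quasi-likelihood test of edgeR, adjusted after Benjamini and Hochberg for 1162 rows). Over all rows tested, 25.9% passed, so 2 of 11 is no larger a share than the background. At an unadjusted p under 0.05 it was 3 of 11 rows, mature miR-192-5p being the third, beside 37.6% of all rows. Of all calls, 54.2% were higher in DP with TMM and 70% with library totals in place of TMM. The median log2 fold change over all rows was 0.02. The libraries are of separate mice, and the test sets the difference between the groups against the spread between mice within a group.

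Mature miR-194-5p ran from 40.2 CPM through a median of 55.2 to 78.0 CPM in DP and from 44.7 through 73.1 to 96.8 CPM in DR mice. The DP values lay below the DR median in 11 of 15 mice, and 13 of 14 DR values lay above the DP median, with overlap of the groups. The log2 fold change was -0.29 ± 0.10 (SE), with an adjusted p of 0.0288 from edgeR's quasi-likelihood test. It stayed called in each of the 29 fits that left out a library, where the adjusted p was at most 0.0486. It was not called with library totals (-0.21, adjusted p = 0.123), with a term for library numbers of 200 and above (-0.25, adjusted p = 0.0555) or without libraries 184, 185 and 186 (-0.28, adjusted p = 0.0568).

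The hairpin row of miR-194-5p had 37.8, 58.1 and 78.9 CPM as lowest, median and highest value in DP and 44.9, 77.5 and 106 CPM in DR. All but 1 of the 15 DP mice were below the DR median. Its log2 fold change of -0.39 ± 0.12 passed edgeR's quasi-likelihood test (adjusted p = 0.0108), also with library totals (adjusted p = 0.0486). Within the libraries below 200 (10 DP, 6 DR) the log2 fold changes were -0.26 for the mature and -0.40 for the hairpin row, and from 200 on (5 DP, 8 DR) -0.17 and -0.26. None of these 4 within-number values passed (adjusted p of 0.175, 0.0709, 0.561 and 0.462 in that order). Below 200, 303 rows passed in all, and from 200 on 19.

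MiR-192-5p, encoded next to Mir194-2, moved less. Its mature CPM was 104, 123 and 149 (lowest, median, highest) in DP and 117, 134 and 165 in DR mice. Of the DP mice, 12 of 15 were below the DR median, and the groups overlapped over most of their range. The log2 fold change was -0.12 ± 0.06 with an adjusted p of 0.122 from edgeR's quasi-likelihood test, and it passed without library 185 (-0.16, adjusted p = 0.0338). The hairpin row was at 55.8, 68.5 and 85.6 CPM in DP and 60.9, 73.0 and 78.9 CPM in DR. Its log2 fold change of -0.06 ± 0.06 did not pass (adjusted p = 0.497), and it was 0.01 with library totals.

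MiR-194-5p has the same sequence at both of its loci, so its reads cannot be assigned to chromosome 1 or 19. The 3p strands do differ between the loci, and are printed here with capitals at the bases that differ.
miR-194-1-3p: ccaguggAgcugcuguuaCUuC
miR-194-2-3p: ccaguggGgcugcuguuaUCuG
Counted from the 5′ end, with the base of miR-194-1-3p first, the differences are A8G, C19U, U20C and C22G.

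Reads of the strands that are specific to a locus came mostly from chromosome 19. MiR-194-2-3p had 180 mature reads in all libraries together and miR-194-1-3p had 9, a ratio of 20.0, and miR-194-2-3p was the higher in 29 of 29 libraries. MiR-192-5p had 82940 mature reads against 234 of miR-215-5p, a ratio of 354, and at least 146 in each library. The 9 reads of miR-194-1-3p were 1 in DP and 8 in DR mice, with no library above 1 read. MiR-194-2-3p had a median of 6 reads per library in either group.

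Of 4 tested rows of other arms and relatives of the 6, all hairpin rows, only that of the chromosome 1 neighbour miR-215-5p passed the test between DP and DR, a share near the 25.9% of all tested rows. Its hairpin row held 13, 22 and 37 reads (lowest, median, highest) in DP and 24, 37.5 and 95 reads in DR mice, or 0.567, 1.06 and 1.69 against 1.06, 1.79 and 4.43 CPM. Every one of the 15 DP values lay below the DR median and every one of the 14 DR values above the DP median, although the ranges overlapped. The log2 fold change was -0.85 ± 0.18 (edgeR's quasi-likelihood test, adjusted p = 0.000451). Without library 184, which held the 95 reads, it was -0.69, and it remained called in each of the 29 fits that left out a library. From library number 200 on it was -0.83 with an adjusted p of 0.0769, and it passed in every other alternative run.

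The mature row of miR-215-5p, at 1 to 22 reads, was below the minimum for the test and read 0.321 ± 0.166 CPM in DP and 0.417 ± 0.219 CPM in DR. The hairpin rows of the chromosome 19 strands miR-192-3p and miR-194-2-3p had log2 fold changes of -0.20 ± 0.18 and -0.05 ± 0.18 and did not pass, nor did that of miR-122-3p at 0.46 ± 0.37. How a read that fits miR-192-5p and miR-215-5p about equally was counted is not given in the sources used here, so counts of miR-215-5p are uncertain to that extent.

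**Figure D2:**
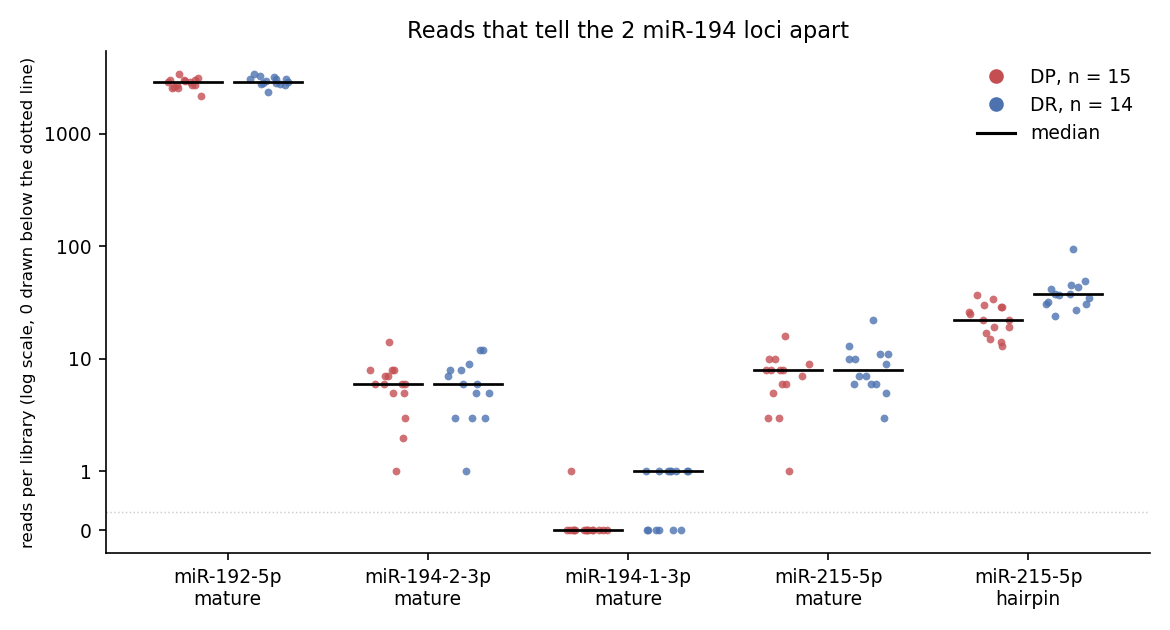
Reads per library on a log axis for strands that belong to chromosome 19 (miR-192-5p, miR-194-2-3p) or chromosome 1 (miR-194-1-3p, miR-215-5p), red DP and blue DR, with bars at the medians. Mature miR-192-5p lies at 2138 to 3412 reads and mature miR-215-5p at 22 or fewer, and the miR-215-5p hairpin row has a median of 22 reads in DP and 37.5 in DR.

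MiR-122-5p varied more between mice than any other of the 6, in both groups. Its mature reads ran from 71 in library 198 to 6277 in library 185, both DP. In CPM the lowest, median and highest values were 3.32, 20.7 and 274 in DP, an 82.5-fold range, and 7.58, 27.7 and 166 in DR, a 21.9-fold range. The groups overlapped almost entirely, with 6 of 15 DP mice above the DR median.

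A few libraries held most of the signal. Libraries 185 (DP, 274 CPM), 184 (DR, 166 CPM) and 210 (DP, 110 CPM) were the only ones at 100 CPM or more, and libraries 186 (DR, 89.9 CPM) and 205 (DR, 84.1 CPM) followed. The top 3 gave 42.3% of the miR-122-5p CPM summed over all mice, where an equal share would be 10.3%, and the top 5 gave 55.7%. Under 10 CPM were 4 libraries, 198, 207 and 206 in DP and 208 in DR. Of the 4 highest libraries, 3 carry consecutive numbers, 184 to 186, from both groups.

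The difference of miR-122-5p between DP and DR was smaller than its error. The log2 fold change was 0.06 ± 0.55 for the mature row and -0.04 ± 0.54 for the hairpin row (adjusted p of 0.951 and 0.956, edgeR's quasi-likelihood test). The 95% interval of the mature ratio of DP to DR runs from 0.478 to 2.26. Without library 185 the mature log2 fold change was -0.61 and without library 184 it was 0.39, so a single library sets its sign. Without libraries 184, 185 and 186 the mature means were 29.3 ± 28.96 CPM in DP (n = 14) and 29.9 ± 22.5 CPM in DR (n = 12).

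**Figure D3:**
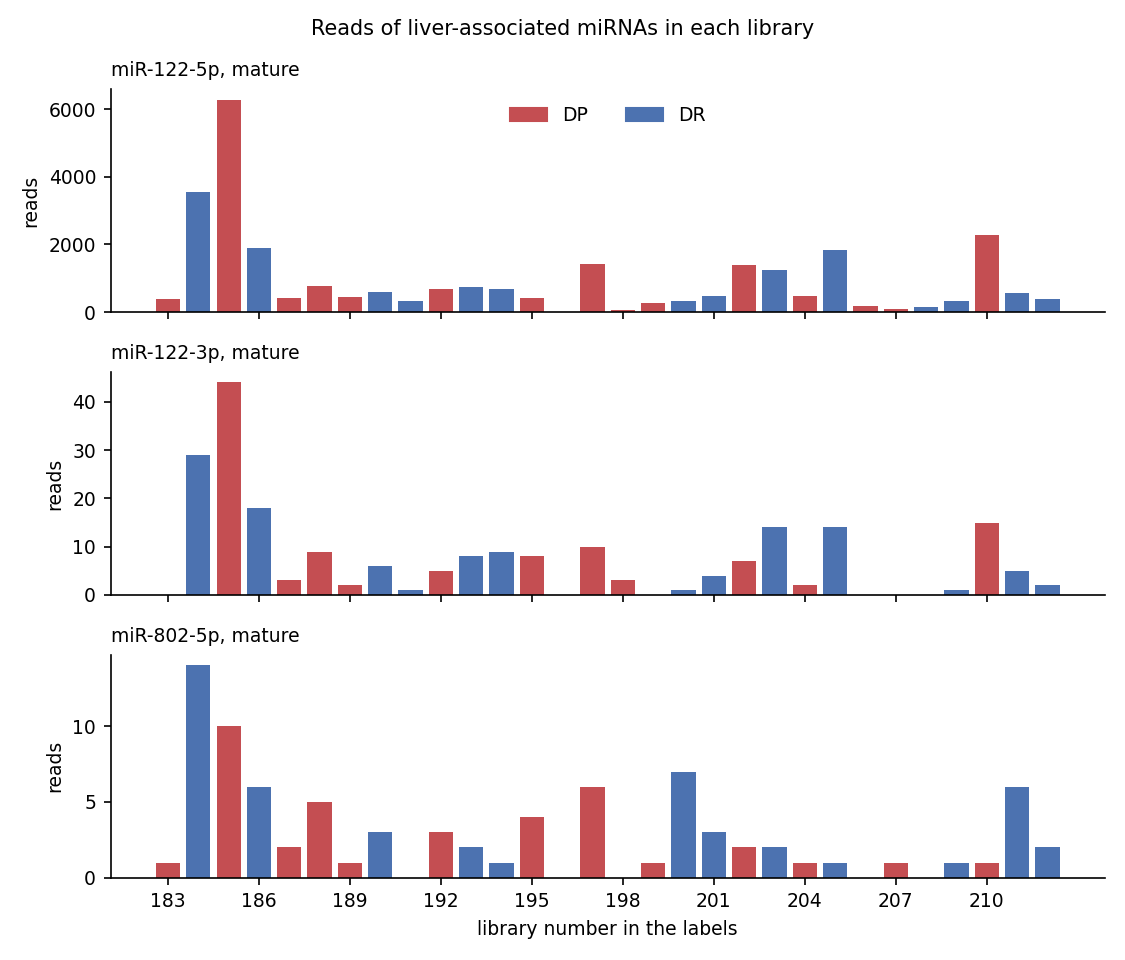
Mature reads of miR-122-5p, miR-122-3p and miR-802-5p by library number, with red bars for DP and blue for DR, each panel from 0. MiR-122-5p peaks at 6277 reads and miR-122-3p at 44 reads in library 185, and miR-802-5p peaks at 14 reads in library 184.

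The mature row of the passenger strand miR-122-3p followed the main strand. It had 220 reads in all, against 28675 of miR-122-5p, so 99.2% of mature miR-122 reads came from the 5p arm (95% Wilson interval 99.1% to 99.3%, counting error only). By reads, the 5 libraries with most miR-122-5p were also the top 5 for miR-122-3p, with a tie for the fifth place. The miR-122-3p reads were 44 in library 185, 29 in 184, 18 in 186, 15 in 210 and 14 in 205. By CPM, library 203 (0.724 CPM) lay above libraries 210 (0.720 CPM) and 205 (0.638 CPM) for miR-122-3p. Over the 29 libraries, log2 CPM of both strands had r = 0.88 and rho = 0.89 (permutation test, p = 1e-05 for each, the smallest 100000 permutations can give, adjusted p = 4e-05), and r = 0.83 without libraries 184 and 185, the farthest from the median. It was 0.83 within DP and 0.97 within DR. The hairpin row of miR-122-3p, with 399 reads in all, followed mature miR-122-5p less closely. Its r was 0.65 and its rho 0.46 (permutation test, adjusted p = 0.00028 and 0.0171). Without libraries 184 and 185 its r was 0.42, and without libraries 184, 185 and 186 it was 0.31. Both pairs were chosen after the counts had been seen, in a family of 4.

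MiR-802-5p, a miRNA of liver, gut and kidney, was far lower, at 0 to 14 reads. Its highest counts were 14 reads in library 184 and 10 in 185, followed by library 200 with 7 and libraries 186, 197 and 211 with 6 each. Library 200 ranked only 23 of 29 by reads of miR-122-5p, and library 210, the third for miR-122-5p, had 1 read of miR-802-5p. The correlation with miR-122-5p was r = 0.63 and rho = 0.60 (permutation test, adjusted p = 0.00028 and 0.00118), and r = 0.46 without libraries 184 and 185. It was r = 0.88 below library number 200 and 0.22 from 200 on, so it did not hold within the later numbers. The erythrocyte miRNA miR-451a gave r = 0.50 and rho = 0.44 with miR-122-5p (permutation test, adjusted p = 0.0058 and 0.0171), and r = 0.36 without libraries 184 and 185.

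Other tissue lists were summed in libraries 184, 185 and 186 as well. Library 185 had the highest sum of 6 general epithelial miRNAs, 151 CPM, where no DR library exceeded 67.2 CPM, and the second highest red cell sum, 22148 CPM of a range of 9644 to 22209 CPM. Libraries 184 and 186 ranked 8 and 6 for the epithelial list and 7 and 6 for red cells. Libraries 210 and 205, also high in miR-122-5p, ranked 23 and 2 for the epithelial list and 21 and 1 for red cells. For the 8 gut and kidney miRNAs, libraries 184, 185 and 186 ranked 2, 8 and 9 of 29. For the 6 exocrine pancreas miRNAs, the 3 libraries ranked 25, 7 and 21 of 29 in number order. In the same order they ranked 5, 13 and 2 for adipose tissue, 8, 19 and 5 for endothelium and 14, 10 and 4 for muscle. For the islet list the ranks were 22, 16 and 26, and for the female gonad 11, 8 and 27. The part of such cells in the miR-122-5p counts was not tested.

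Set against all rows tested, the spread of miR-122-5p was high and that of miR-192-5p low. The biological coefficient of variation, the spread beyond counting noise within groups as edgeR estimates it, was 0.957 for mature miR-122-5p, which ranked 54 of 1162, and the median was 0.230. Among 206 mature miRNAs with at least 500 reads on average, miR-122-5p ranked 8, miR-194-5p (0.209) 104 and miR-192-5p (0.152) 184. In that class the median was 0.209.

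**Figure D4:**
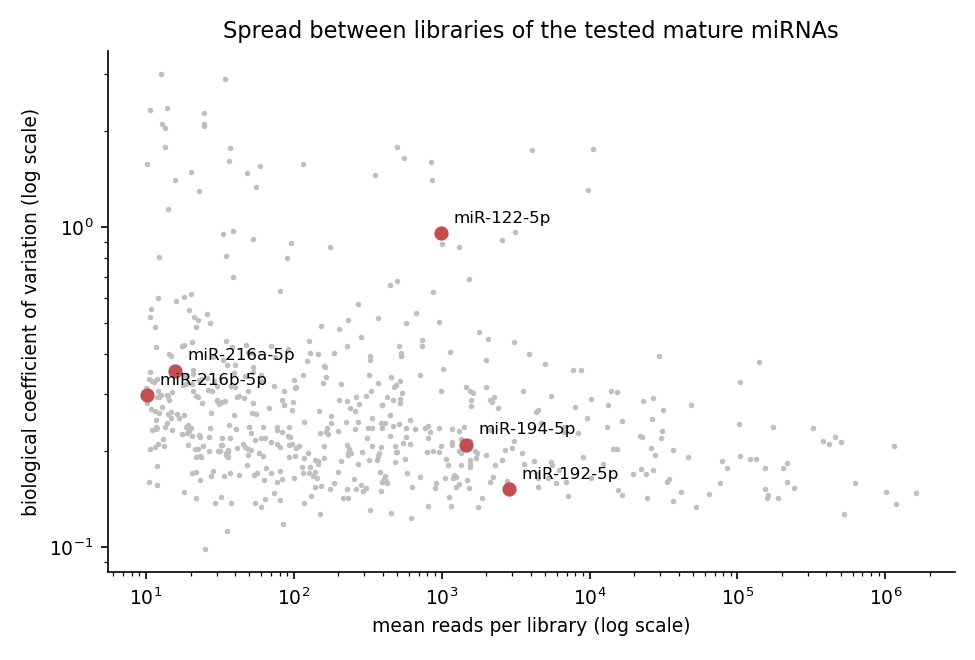
Biological coefficient of variation against mean reads per library, both on log axes, for the tested mature miRNAs (grey), with the 5 members tested as mature rows in red. MiR-122-5p stands at 0.957 above most miRNAs of its abundance, and miR-192-5p at 0.152 near the lower edge.

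Libraries that lie apart were sought by the distance from the group median in scaled median absolute deviations (MAD) of log2 CPM, with a distance over 3.5 called outlying. Of the 348 values of the 12 rows, 4 were outlying, or 1.15%, and over all tested rows and libraries the share was 2.29%. Of the 4, 3 belonged to miR-194-5p in DR mice. Library 191 was low in the mature row (44.7 CPM, distance -8.60) and in the hairpin row (44.9 CPM, distance -4.18), and library 201 was high in the mature row (96.8 CPM, distance 4.91). The fourth was the hairpin row of miR-216a-5p in library 184 (5 reads, distance -3.80).

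No library was outlying for miR-122-5p by this measure, whose values were spread widely around the median, and library 185 reached 2.84. Its 3p hairpin row, at 72 reads in library 185, reached 8.07. Libraries were outlying for 0.775% to 6.02% of all tested rows. Library 185, at 5.77%, and library 207, at 6.02%, were the highest, while libraries 184 and 191 were outlying for 0.775% and 1.03% of rows.

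The pancreas miRNAs were close to the limit of counting. MiR-216a-5p had 6, 18 and 30 mature reads (lowest, median, highest) in DP and 3, 14 and 23 in DR. MiR-216b-5p had 3, 12 and 16 reads in DP and 3, 9.5 and 20 in DR. MiR-217-5p had 1, 3 and 10 reads in DP and 0, 2 and 8 in DR mice.

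At these depths the 3 miRNAs summed to 15 to 48 reads per library, a median of 0.000234% of mature reads. The 0 reads of miR-217-5p in DR libraries 201 and 211 allow up to 0.139 and 0.161 CPM (3 reads), which is the level of many other libraries. The variance of mature reads over that of counting alone was 2.64 for miR-216a-5p, 1.60 for miR-216b-5p and 1.74 for miR-217-5p, where 1 is counting noise. For miR-122-5p the same index was 1642, at a mean of 989 reads. The index rises with the mean count, so it does not compare the spread of miRNAs of unlike abundance. The biological coefficient of variation of the mature rows was 0.957 for miR-122-5p, 0.356 for miR-216a-5p and 0.298 for miR-216b-5p.

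None of the 5 tested pancreas rows passed edgeR's quasi-likelihood test. Mature miR-216a-5p had a log2 fold change of 0.29 ± 0.23 (adjusted p = 0.388) and its hairpin row -0.19 ± 0.26 (adjusted p = 0.632), in opposite directions. MiR-216b-5p had 0.07 ± 0.23 and -0.08 ± 0.18, and the hairpin row of miR-217-5p 0.24 ± 0.32. The 95% interval of the mature miR-216a-5p ratio of DP to DR was 0.874 to 1.70, and that of miR-216b-5p 0.756 to 1.46. Mature miR-217-5p, below the minimum count, was at 0.157 ± 0.105 CPM in DP and 0.118 ± 0.105 CPM in DR (two-sided permutation test of the CPM, 100000 permutations, p = 0.334).

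**Figure D5:**
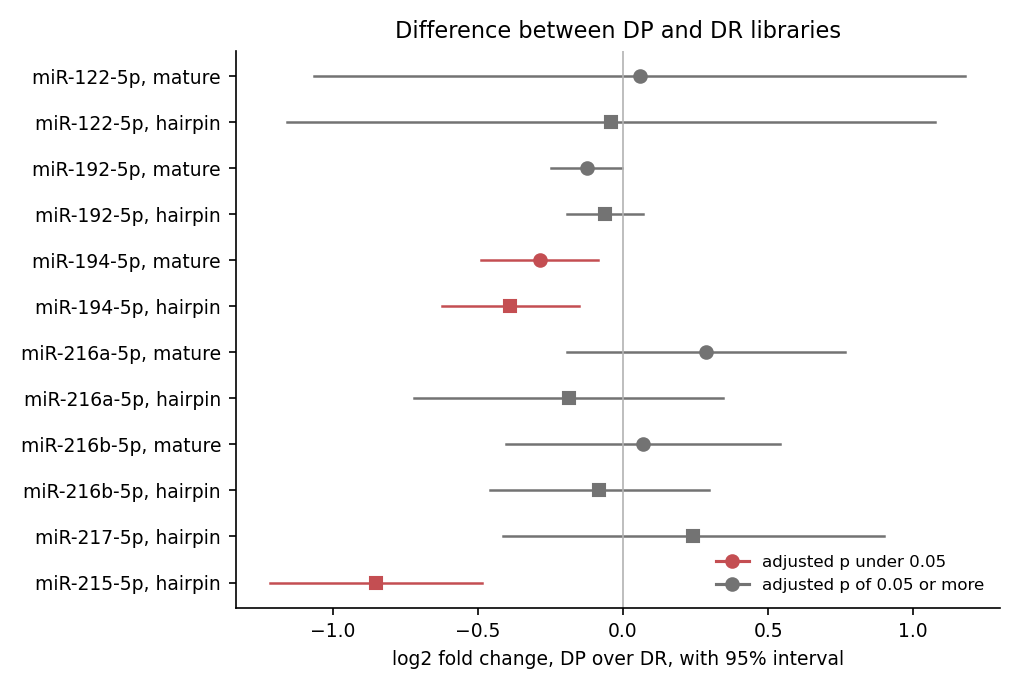
Log2 fold change of DP over DR with its 95% interval for the 11 tested rows of the 6 miRNAs and for the miR-215-5p hairpin row, circles for mature and squares for hairpin rows, red where the adjusted p is under 0.05. Both miR-194-5p rows (-0.29 and -0.39) and the miR-215-5p hairpin row (-0.85) lie left of 0, and the intervals of miR-122-5p are the widest.

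The arm with more mature reads differed within the pancreas cluster. Of mature miR-216a reads, 88.5% were 5p (95% Wilson interval 85.5% to 91.0%), and of mature miR-216b reads 98.0% (95.7% to 99.1%). MiR-217 was the reverse in its mature rows, with 91 reads of 5p and 221 of 3p, a 5p share of 29.2% (24.4% to 34.4%). Mature miR-217-3p exceeded miR-217-5p in 23 of 29 libraries and equalled it in 4. The hairpin rows went the other way, with 301 reads under the 5p and 161 under the 3p name, so the order of the arms holds for the mature rows alone. Mature miR-192 reads were 99.9% 5p.

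Hairpin rows carry arm names too, and what separates a hairpin from a mature read is not given in the sources used here. The share of hairpin among mature plus hairpin reads was 36.7 ± 2.4% for miR-122-5p, 35.1 ± 1.8% for miR-192-5p and 50.5 ± 1.9% for miR-194-5p (mean ± SD of 29 libraries). It was 39.8 ± 12.6% for miR-216a-5p, 58.5 ± 12.7% for miR-216b-5p and 76.4 ± 14.3% for miR-217-5p, whose hairpin reads exceeded the mature ones in 27 of 29 libraries. For 521 tested mature miRNAs with a hairpin row of the same name, the median share was 48.7%, with quartiles of 30.9% and 66.1%. The share of miR-122-5p stayed at 28.6% to 40.8% over its whole range of levels.

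Mature and hairpin rows of the abundant members rose and fell together over the libraries, with r = 0.99 for miR-122-5p, 0.97 for miR-194-5p and 0.76 for miR-192-5p. The rank correlations were 0.99, 0.91 and 0.78, and each of these 6 coefficients had the smallest p that 100000 permutations can give, 1e-05 (adjusted over 6 pairs, 2e-05). Leaving out the 2 libraries farthest from the median gave r = 0.99, 0.96 and 0.75. Both rows may count reads of the same molecules, so they are not independent measurements. For miR-216b-5p r was 0.18 (rho = 0.10; permutation test, adjusted p = 0.364 and 0.586), at a mean of 10.2 mature reads.

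Among the 15 pairs of mature members, 1 correlation passed by Pearson's r and none by rank. This was miR-216a-5p with miR-217-5p, r = 0.54 and rho = 0.43 (permutation test, p = 0.0023 and 0.0203, adjusted p = 0.0345 and 0.124), and r = 0.45 without the 2 libraries farthest from the median. It was 0.29 within DP and 0.70 within DR, and rests on a median of 2 reads of miR-217-5p. The cluster neighbours miR-192-5p and miR-194-5p gave r = 0.36 and rho = 0.37 (adjusted p = 0.169 and 0.147, permutation test), r = 0.35 without the 2 farthest libraries, 0.16 within DP and 0.26 within DR. MiR-122-5p gave r = 0.46 and rho = 0.47 with miR-192-5p (adjusted p = 0.0803 and 0.124, permutation test), and r = 0.33 without libraries 184 and 185. In the negative direction, miR-192-5p with miR-217-5p gave r = -0.44 and rho = -0.40 (permutation test, adjusted p = 0.0803 and 0.124). Without the 2 farthest libraries, r of this pair was -0.29.

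For each member the mature miRNAs with the most similar order of levels over the 29 libraries were listed by Spearman's rho, as a description that shares library, depth and scaling. The order pools DP and DR mice, so rho includes any difference between the groups, and it was not taken within a group. For miR-143-3p, miR-378a-3p, miR-126a-3p and miR-150-5p, named below, 0 of 15 DP mice were above the DR median. MiR-192-5p was most like miR-143-3p (0.68), miR-378a-3p (0.66) and miR-126a-3p (0.66), which are on the adipose tissue and endothelium lists. MiR-194-5p was most like miR-150-5p (0.61), a miRNA of mature lymphocytes, an RNA listed as novel_mir97 (0.61) and miR-196b-5p (0.57). MiR-122-5p was most like miR-449a-5p (0.57), known from multiciliated epithelium, miR-26a-1-3p (0.55) and miR-1843b-3p (0.55).

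The scarce members had neighbours of similar rho. MiR-217-5p was most like miR-214-3p (0.70), miR-30e-5p (0.64) and miR-30d-5p (0.62), and miR-216a-5p like miR-29b-3p (0.61), miR-324-5p (0.61) and miR-337-3p (0.59). MiR-216b-5p was most like miR-672-5p (0.54), miR-361-5p (0.53) and miR-155-5p (0.52). For each member these are the 3 highest of 573 or 574 comparisons. They were not tested against the highest rho that unrelated rows would reach in as many comparisons.

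Lists of tissue miRNAs were counted against the 25.9% of all tested rows that passed, and with 1 or 2 members tested a list cannot be set apart from that share. Of 8 gut and kidney miRNAs, 2 were tested and 1 fell in DP, miR-194-5p, with a median log2 fold change of -0.21 beside 0.02 over all rows. The liver list (1 of 2 tested) and the exocrine pancreas list (2 of 6 tested) had no member that passed, with medians of 0.06 and 0.18. Of the islet list, 2 of 3 were tested, miR-7a-5p rose (0.49 ± 0.10, adjusted p = 0.000392) and the islet miRNA miR-375-3p was at -0.33 ± 0.22 (adjusted p = 0.285), all by edgeR's quasi-likelihood test. Summed liver miRNAs lay at 3.46 to 276 CPM in DP and 7.58 to 167 CPM in DR, and summed exocrine pancreas miRNAs at 1.10 to 2.50 and 1.25 to 2.38 CPM.

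Beside the same background of 25.9%, adipose tissue had 3 of 5 members that fell, led by miR-143-3p (-0.47 ± 0.06, adjusted p = 2.47e-06) and miR-193b-3p (-0.82 ± 0.16, adjusted p = 0.000154), and the endothelial miR-126a-3p fell (-0.28 ± 0.06, adjusted p = 0.000367). These fell in the same direction as miR-194-5p, and the part of fat or endothelial cells in its difference was not tested. Among 6 miRNAs of general epithelium, miR-200c-3p was higher in DP (0.38 ± 0.12), as was miR-205-5p (0.53 ± 0.15), and 1 fell. The median of their summed level was lower in DP (54.9 CPM) than in DR (59.8 CPM), with 151 CPM in DP library 185. None of 4 red cell or 4 muscle miRNAs passed, where miR-451a was at -0.25 ± 0.11 and miR-133a-3p at -0.87 ± 0.49. MiR-202 of the female gonad was not tested, with summed levels of 0.522 CPM or less.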

How the data were processed

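Small RNA of gWAT from 15 DP and 14 DR mice was analysed from the deposited table of raw read counts, whole numbers with no normalization. The authors extracted total RNA, had it sequenced on a BGISEQ-500 and annotated miRNAs with miRDeep2. The submitters' processing notes name Bowtie2 and mm10. How reads matching several miRNAs were counted is not given in the sources used here. Rows that are neither mature nor hairpin were left out of scaling and testing. Among these were 4 entries that name no RNA (exon, intron, intergenic, repeat), with 6.89% to 12.1% of the counts.

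The 1162 mature and hairpin rows whose mean count exceeded 10 underwent TMM scaling and were compared by the quasi-likelihood test of edgeR 4.0.16 in R 4.3.3, with Benjamini-Hochberg adjustment and a threshold of 0.05. Intervals are at 95%. DESeq2 1.42.0, limma 3.58.1 and other settings were alternatives. Log2 CPM used a prior count of 2. Correlations and the CPM of miR-217-5p were tested with 100000 permutations (numpy 2.4.6, scipy 1.17.1). MAD were multiplied by 1.4826. The tests were checked on simulated data. Reads carry no molecular identifiers, so intervals and the floor of 3 reads cover counting error only.

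The 6 miRNAs, their other arms and relatives, the tissue lists and the rule for similar miRNAs (the 3 with the highest rho outside the same hairpin) were chosen with earlier results of these data known. From each list, up to 2 members with the smallest p were named. miR-122-3p, miR-802-5p and miR-451a were correlated with miR-122-5p after the counts had been seen, as were the settings by library number 200 and without libraries 184, 185 and 186.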

Additional observations from a re-analysis of the deposited data

How the results depend on the processing

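The number of member rows called, 2 and both of miR-194-5p, was 1 with library totals, with mature rows alone (no hairpin row is then tested), with a term for library numbers of 200 and above and without libraries 184, 185 and 186, and 0 within libraries below 200 and from 200 on. It was 2 to 3 with each library left out, where the 3 were found without library 185 and include mature miR-192-5p. The settings by number 200 and without libraries 184, 185 and 186 were chosen after seeing the data, as was the exact test of edgeR. Both calls held with median-of-ratios size factors, DESeq2, limma-voom, the likelihood ratio, exact and robust tests, either filter, library number as a linear term and thinning. No paired analysis was possible because replicate numbers were given in accession order only.

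Signs of uncalled rows turned. For mature miR-122-5p the log2 fold change of 0.06 became -0.40 with limma-voom, -0.0152 with the term for 200 and above, -0.32 below 200 and -0.0359 without libraries 184, 185 and 186, and it ran from -0.61 to 0.39 with a library left out. Its hairpin row, at -0.04, was 0.0144 with library totals, 0.39 from 200 on and -0.63 to 0.29 with a library left out. The hairpin row of miR-192-5p was 0.0112 with library totals and 0.00959 below 200. Mature miR-216b-5p ran from -0.00986 to 0.15 with a library left out, and its hairpin row was 0.00049 from 200 on.

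From 200 on, 19 of 1141 rows passed, against 301 of 1162 in all libraries. The number of outlying values, 4, was 8 at a distance over 3 and 1 over 5. The single pair of correlated members, 1, became 0 within DP, within DR, without the 2 farthest libraries, below 200, from 200 on and without libraries 184, 185 and 186. Rows near a mean of 10 reads drop out in some fits, so no value exists there. Depth limits the pancreas miRNAs most, at 15 to 48 reads summed per library.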
